A study of Mus musculus with 20 samples.

Results

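The genes described here are 39 interferon-stimulated genes, taken by name from a list of interferon-induced genes that leaves out the Oas and Gbp families. All 39 were found among the 35204 genes of the count table, and all 39 were among the 16306 genes abundant enough to be tested. The RNA came from the ileum of 20 female C57BL/6 mice in 4 groups of 5, aged 7 weeks at the start. CD mice ate a control amino acid diet for 3 weeks, TDD mice ate the same diet without tryptophan, and CD+ABX and TDD+ABX mice ate these diets while drinking ampicillin, vancomycin, metronidazole, neomycin and gentamycin. The mice without antibiotics are called SPF mice, and each group is a set of wild-type animals with no transgene. Total counts per mouse ranged from 36676963 to 58662617. Levels are given as CPM, the counts scaled to a common library size with TMM factors. Genes were tested by quasi-likelihood in edgeR, with p-values adjusted by Benjamini and Hochberg's method (q), and a gene is called where q lies under 0.05 and the change is at least 2-fold. The samples were pieces of ileum with all their cell types together, so fewer cells of a type and less RNA per cell cannot be told apart.

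Interferons are secreted proteins that warn tissue of infection. Type I and type III interferons act through receptors and JAK kinases on a complex with STAT2 and IRF9, which binds a DNA element called the ISRE, whereas interferon gamma acts on an element called GAS. The genes switched on in this way block viral growth, sense foreign nucleic acid, tag proteins with ISG15 or damp the response, and in the gut a low level of their expression is known to be kept up by the microbiota in the absence of infection.

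The 39 genes were grouped by role into 18 antiviral effectors, 4 sensors of nucleic acid, 4 transcription factors, 7 genes for ISG15, ubiquitin and ADP-ribose enzymes, 2 feedback inhibitors and 4 immunity-related GTPases. Several lie side by side. Ifit2, Ifit3, Ifit3b and Ifit1 are neighbours on chromosome 19 (34550694 to 34650009, GRCm38, GENCODE M21 annotation). Rsad2 and Cmpk2 lie 12.8 kb apart on chromosome 12, Mx1 and Mx2 lie 72.4 kb apart on chromosome 16, and Parp14, Dtx3l and Parp9 follow each other on chromosome 16. Igtp and Irgm2 overlap on the same strand of chromosome 11, and Dtx3l and Parp9 overlap at their ends on opposite strands. Whether counting used the strand is not given in the sources used here. The split of reads between Dtx3l and Parp9, and between Dhx58 and its antisense gene Dhx58os, is therefore uncertain. Strand cannot separate Igtp from Irgm2 or the close paralogs Ifit3 and Ifit3b, so their split is uncertain as well. Ifi47 and Irf9 also overlap other genes on the same strand (Olfr56 and Rnf31), and several more of the 39 overlap an annotated gene. Mx2 is annotated as a polymorphic pseudogene, and its gene count exceeded the sum of its matched transcripts by a ratio of 1.07 to 1.57 in each mouse, so its level is uncertain too.

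Promoter sequences from RefSeq (GRCm38.p6, 250 bases before to 50 bases after each start) were found for 30 of the 39 genes. The ISRE core, searched on both strands as TTTCNNTTTC, was present in the promoter of 15 of these 30 genes, against 3.99% of the 27025 genes with a promoter in the table. The GAS letters TTCNNNGAA, which read the same on both strands, were present in 7 of the 30 against 9.55% of genes. The stretches shown were picked because they hold the element. Those of Ifit1, Ifit3, Ifit3b, Isg15, Rsad2, Bst2 and Igtp belong to genes called lower in TDD than in CD mice, and those of Irgm2 and Stat2 to genes that were not called. Ifi44, which fell most of the called genes among the 39, had no match in its window, and Ifi27l2a had no window in the table. Each is written 5′ to 3′ on the strand of its gene, with ISRE core matches in capitals. The match reads GAAANNGAAA where it lies on the other strand, and adjoining matches overlap.
Ifit1 (chr19:34640773-34640825, + strand): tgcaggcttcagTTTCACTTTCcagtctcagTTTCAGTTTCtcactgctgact
Ifit3 (chr19:34583361-34583428, + strand): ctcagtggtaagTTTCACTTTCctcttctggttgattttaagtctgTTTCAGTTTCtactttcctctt
Ifit3b (chr19:34607757-34607824, + strand): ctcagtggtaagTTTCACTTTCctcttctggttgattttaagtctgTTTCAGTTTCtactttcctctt
Isg15 (chr4:156200863-156200908, - strand): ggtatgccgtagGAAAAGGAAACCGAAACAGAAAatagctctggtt
Rsad2 (chr12:26456551-26456584, - strand): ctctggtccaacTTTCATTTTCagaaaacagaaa
Bst2 (chr8:71537575-71537614, - strand): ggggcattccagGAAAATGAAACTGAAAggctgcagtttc
Igtp (chr11:58199510-58199543, + strand): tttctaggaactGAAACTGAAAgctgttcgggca
Irgm2 (chr11:58214901-58214934, + strand): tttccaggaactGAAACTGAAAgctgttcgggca
Stat2 (chr10:128270264-128270297, + strand): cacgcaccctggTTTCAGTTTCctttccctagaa
Ifit1, Ifit3 and Ifit3b each hold 2 separate matches, Isg15 holds 3 in a row and Bst2 holds 2. Over the 68 bases shown, Ifit3 and Ifit3b differ at 0 positions, and Igtp and Irgm2 differ at 1 of 34. A match describes the letters only, and binding was not measured.

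On the control diet, the levels per transcript length (TPM, which divides out the length) spanned a wide range. Lgals3bp, a secreted glycoprotein that binds galectins, was highest at a mean of 199.8 TPM, followed by Ifi35 at 144.9 TPM and the transcription factors Irf7 at 143.0 TPM and Irf1 at 128.7 TPM. Isg15, the ubiquitin-like tag, had 63.9 TPM and Ifit1, which binds viral RNA caps, 42.1 TPM. At the other end were Ifit2 at 3.21 TPM and Socs1, an inhibitor of JAK kinases, at 0.843 TPM.

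The CD mice were the most variable group, with an SD of 826 CPM in the summed level of the 39 genes against at most 353 CPM in the other groups. The sums were 2520, 1440, 3030, 3018 and 3652 CPM in CD mice 1 to 5, and 1974, 1688, 1544, 1895 and 2004 CPM in TDD mice 1 to 5. CD mouse 2 was thus below every TDD mouse, and the other 4 CD mice were above all of them. CD mouse 2 had the lowest level of its group for 37 of the 39 genes and CD mouse 5 the highest for 31. For 14 genes CD mouse 2 was below all 5 TDD mice. With antibiotics the sums ranged from 1973 to 2840 CPM in CD+ABX mice and from 1753 to 2213 CPM in TDD+ABX mice, and these groups overlapped. The main counts are therefore also given without CD mouse 2 and without CD mouse 5.

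**Figure D1:**
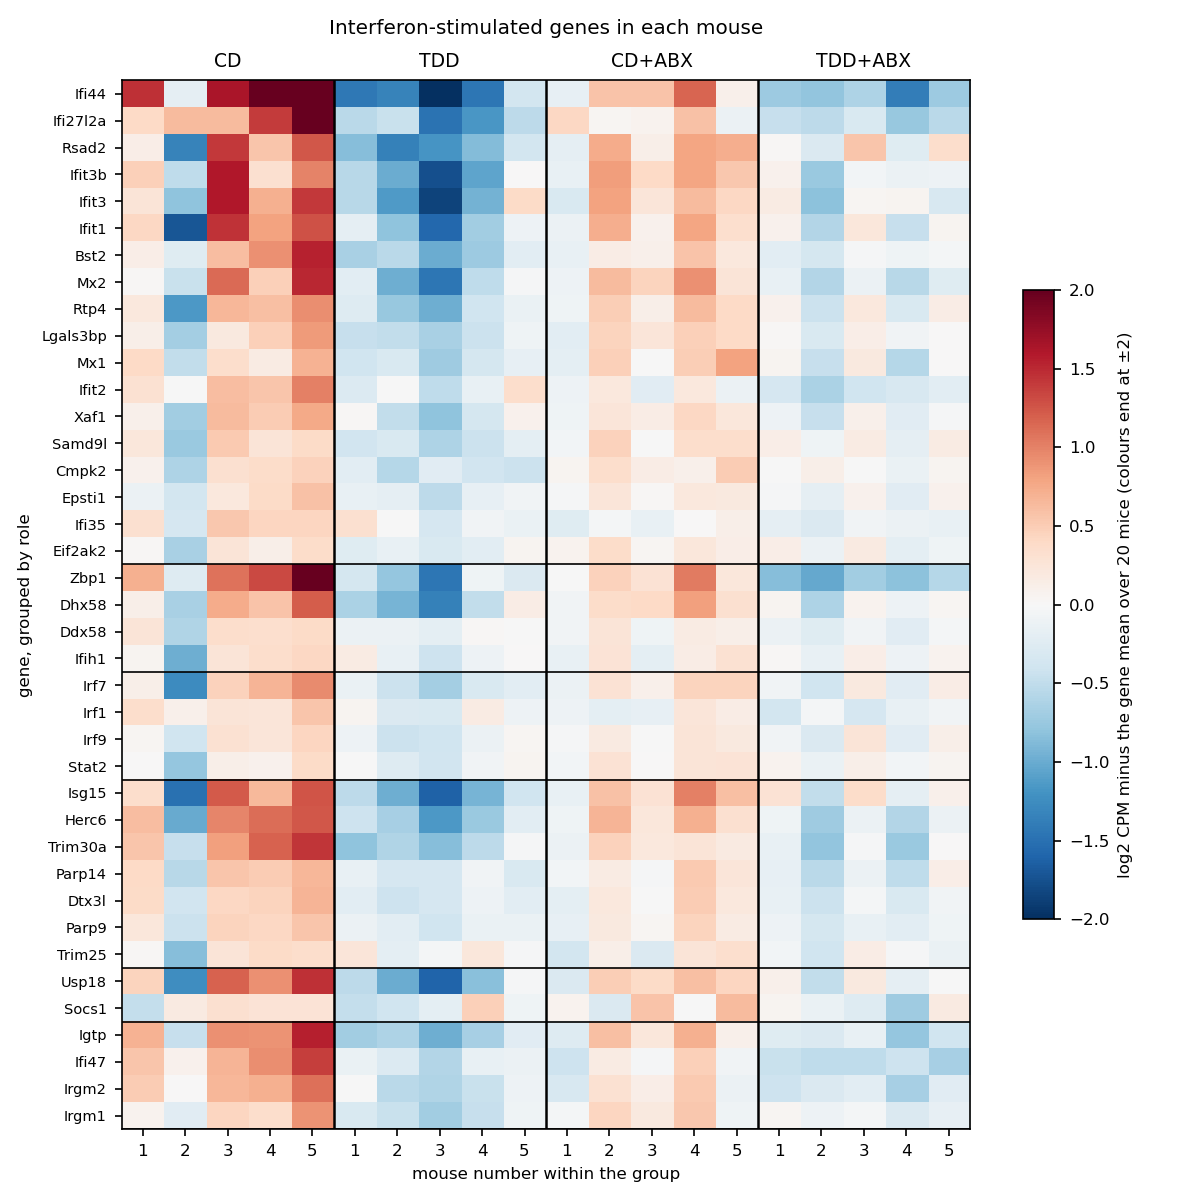
Level of each of the 39 genes (rows, grouped by role) in each of the 20 mice (columns), as log2 CPM minus the mean of the gene over all mice, with colours ending at 2 in either direction. CD mouse 2 is pale or blue among red CD mice for most genes, and the TDD columns are mostly blue.

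The first comparison asked how the diet without tryptophan changed these genes in SPF mice. TDD mice had lower mean levels of all 39 genes, and 16 of the 39 were called lower and 0 higher, where 0.993% of all genes tested were called lower. Without the 2-fold limit, 28 of the 39 had a q under 0.05, all lower, against 7.71% of all genes. The median log2 fold change of the 39 genes was -0.69 (range -3.34 to -0.05), while that of all genes tested was 0.01. The 5 CD mice lay wholly above the 5 TDD mice for 4 of the 39 genes, namely Ifi44, Ifi27l2a, Ifi47 and Irgm2, against 4.9% of all genes. Without CD mouse 2, 18 of the 39 genes were called (1.17% of all genes called lower), 36 had a q under 0.05, and the median was -0.86. Without CD mouse 5, 11 were called (0.694% of all genes called lower), 16 had a q under 0.05, and the median was -0.54. Of all genes tested, 1753 and 896 were lower at a q under 0.05 in these fits, against 1257 with all mice. With only the CD and TDD mice in the fit, 9 of the 39 were called (231 of all genes in either direction, against 298), and Ifit1, Ifit3, Mx2, Rsad2, Dhx58, Isg15 and Usp18 no longer were. With limma-voom 12 were called, without Ifit1, Rsad2, Isg15 and Ifi47.

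Among the antiviral effectors, 8 of 18 were called lower. Ifi44, an interferon-induced protein with antiviral activity, stood at 12.6, 4.02, 14.1, 23.1 and 47.1 CPM in CD mice 1 to 5 and at 1.71, 1.81, 1.12, 1.68 and 3.54 CPM in TDD mice 1 to 5. Every CD mouse was above every TDD mouse, although the lowest CD mouse was close to the highest TDD mouse. This was the largest difference among the 39 genes (10.2-fold lower, log2 fold change -3.34, standard error 0.49, q = 0.000254, edgeR). Ifi27l2a, a small interferon-induced protein, had 7.66, 9.05, 8.98, 15.3 and 37.3 CPM on CD and 3.99, 4.29, 2.09, 2.59 and 4.06 CPM on TDD. Again the groups did not overlap, and the log2 difference was -2.20 (standard error 0.36, q = 0.000581, edgeR). CD mouse 5 set much of the CD mean of both genes. Without it their log2 fold changes were -2.77 and -1.60, and both were still called.

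Rsad2, which encodes viperin, an enzyme that makes a chain-terminating nucleotide, was 14.1, 5.05, 34.3, 18.8 and 30.3 CPM in CD mice 1 to 5 and 7.10, 5.02, 5.68, 7.05 and 9.96 CPM in TDD mice. CD mouse 2 lay within the TDD range and the other 4 CD mice above it, and the log2 difference was -1.56 (standard error 0.37, q = 0.00902, edgeR). Its neighbour Cmpk2, a mitochondrial nucleotide kinase, passed without the fold limit at a smaller size (log2 fold change -0.53, q = 0.0199, edgeR). Bst2, or tetherin, which holds budding viruses at the cell surface, had 15.8, 12.2, 22.2, 27.4 and 42.2 CPM on CD and 9.24, 9.93, 7.27, 8.70 and 12.5 CPM on TDD. The groups met only where the highest TDD mouse passed CD mouse 2 (log2 fold change -1.33, standard error 0.24, q = 0.00147, edgeR).

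The Ifit genes encode proteins with tetratricopeptide repeats that bind foreign RNA, and 3 of the 4 in the list were called. Ifit1 stood at 65.4, 14.9, 134, 85.2 and 118 CPM on CD and at 43.2, 27.9, 16.4, 30.1 and 45.4 CPM on TDD. CD mouse 2 had the lowest of these 10 values and the other 4 CD mice the highest 4. Its log2 difference was -1.36 (standard error 0.40, q = 0.0310, edgeR), and the call was lost in 6 of 20 fits that left out 1 mouse. Ifit3 had 25.6, 12.3, 64.9, 35.2 and 57.1 CPM on CD and 14.7, 9.76, 5.94, 11.1 and 27.9 CPM on TDD (log2 fold change -1.49, standard error 0.41, q = 0.0214, edgeR). TDD mouse 5 was above CD mice 1 and 2, and the call was lost in 5 of 20 such fits. Ifit3b, whose 68 promoter bases shown above match those of Ifit3, had 5.07, 2.58, 11.1, 4.57 and 7.30 CPM on CD and 2.48, 1.83, 1.08, 1.76 and 3.69 CPM on TDD (log2 fold change -1.49, standard error 0.34, q = 0.00647, edgeR). It kept its call in all 20 fits. Ifit2 had a q under 0.05 but a log2 fold change of -0.62 (q = 0.0181, edgeR).

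Mx2, a dynamin-like GTPase of the Mx family, had 5.54, 4, 11.9, 7.59 and 15.6 CPM on CD and 4.72, 2.77, 2.01, 3.83 and 5.34 CPM on TDD (log2 fold change -1.26, standard error 0.32, q = 0.0123, edgeR). Only CD mouse 2 lay inside the TDD range, and the call was lost without CD mouse 5. Mx1, its neighbour, was at -0.64 on the log2 scale (q = 0.0468, edgeR). Lgals3bp, the most abundant effector, ranged from 150 to 433 CPM (median 277) in CD mice and from 153 to 227 CPM (median 175) in TDD mice, and passed without the fold limit at -0.68 (q = 0.0260, edgeR). Samd9l, a brake on viral protein synthesis, and Rtp4, a chaperone of membrane receptors, also passed only without the fold limit, at -0.57 and -0.87 (q = 0.0284 and 0.0407, edgeR). Eif2ak2, the kinase PKR that halts translation on double-stranded RNA, had the smallest difference among the effectors, a log2 fold change of -0.23 that did not pass (q = 0.283, edgeR). Xaf1, Epsti1 and Ifi35 had values from -0.61 to -0.33 and did not pass either.

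**Figure D2:**
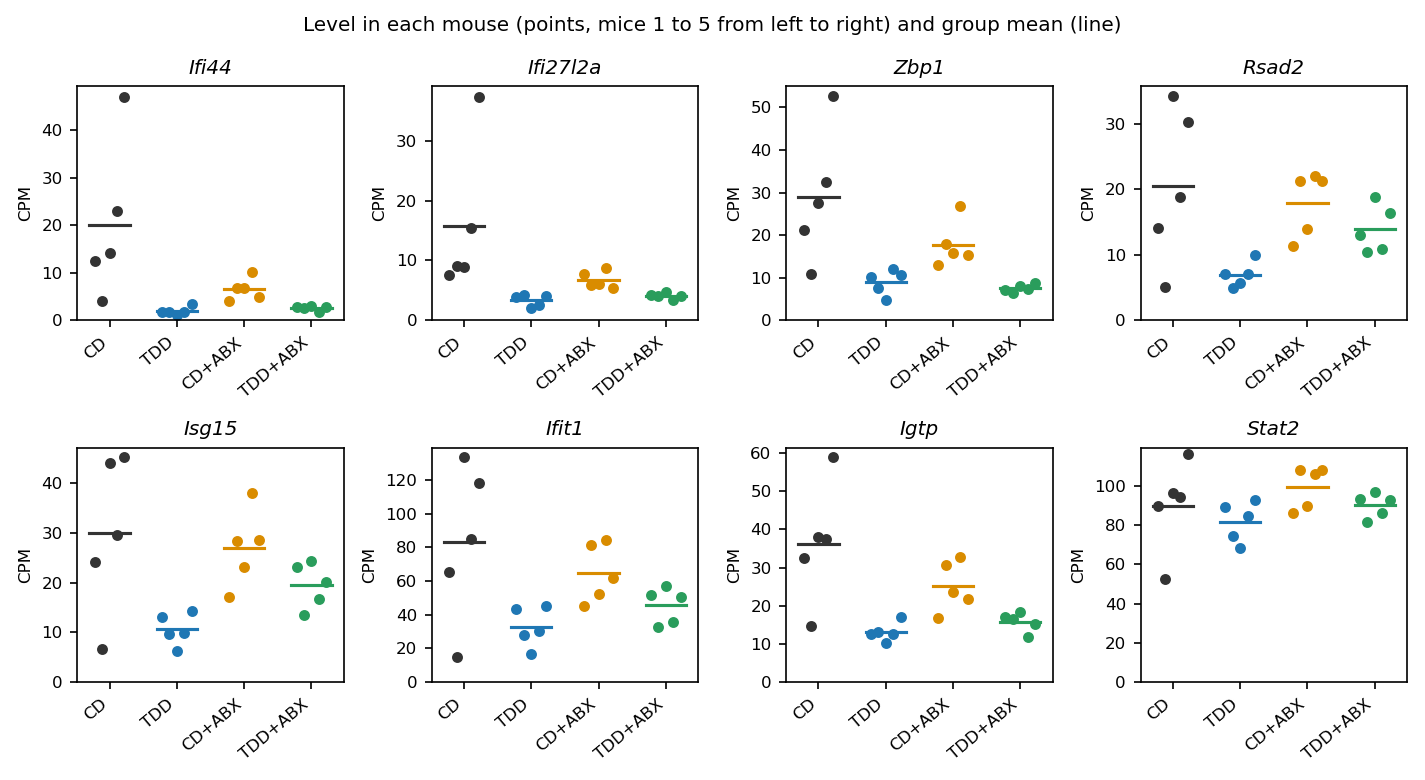
CPM in each mouse (points, mice 1 to 5 of a group from left to right) with the group mean (line) for 8 genes in the 4 groups, each panel starting at 0. For Ifi44 and Ifi27l2a the CD points lie wholly above the TDD points, for Zbp1, Rsad2, Isg15, Ifit1 and Igtp CD mouse 2 lies among or below them, and for Stat2 the groups overlap.

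Of the 4 sensors, 2 were called lower. Zbp1, which detects Z-form nucleic acid and can start cell death, had 21.2, 10.8, 27.7, 32.6 and 52.6 CPM on CD and 10.2, 7.63, 4.78, 12.2 and 10.7 CPM on TDD. CD mouse 2 was below TDD mouse 4 and the other 4 CD mice were above all TDD mice (log2 fold change -1.67, standard error 0.32, q = 0.00228, edgeR). Dhx58, or LGP2, a helicase that tunes RNA sensing, had 14.4, 8.40, 22.1, 19.6 and 30.5 CPM on CD and 8.51, 6.97, 5.16, 9.44 and 14.7 CPM on TDD (log2 fold change -1.09, standard error 0.29, q = 0.0182, edgeR). Leaving out CD mouse 5 or TDD mouse 3 removed the call. The RNA helicases that start the signal did not pass. Ddx58, or RIG-I, was at -0.27 on the log2 scale (q = 0.187, edgeR) and Ifih1, or MDA5, -0.18 (q = 0.573, edgeR). Ifih1 was the most abundant sensor by CPM, with 48.1 to 125 CPM (median 113) on CD and 71.2 to 106 CPM (median 88.3) on TDD.

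None of the 4 transcription factors was called by edgeR, DESeq2 or limma-voom. In edgeR 3 of 4 had an unadjusted p under 0.05, against 4625 of the 16306 genes tested in either direction. Irf1, which interferon gamma induces strongly, passed without the fold limit at -0.39 on the log2 scale (q = 0.0229, edgeR). Irf7, the factor that amplifies type I interferon genes, was the most abundant by CPM, with 62.6 to 289 CPM (median 205) on CD and 93.5 to 137 CPM (median 121) on TDD. Its difference on the log2 scale was -0.69 (standard error 0.26, q = 0.0871, edgeR), and without CD mouse 2 it was -0.92 (q = 0.000823, edgeR). Irf9 and Stat2, members of the complex that binds the ISRE, had values of -0.35 (q = 0.0947, edgeR) and -0.13 (q = 0.591, edgeR).

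In the ISG15, ubiquitin and ADP-ribose group, 3 of 7 genes were called and 6 of 7 passed without the fold limit. Isg15 had 24.1, 6.72, 44.1, 29.5 and 45.2 CPM on CD and 13.1, 9.58, 6.13, 9.94 and 14.4 CPM on TDD. CD mouse 2 was near the bottom of the TDD range and the other 4 CD mice were above it (log2 fold change -1.49, standard error 0.37, q = 0.0116, edgeR), and the call was lost with limma-voom and in the fit of CD and TDD mice alone. Herc6, the ligase that attaches ISG15 in mice, had 40.1, 12.9, 51.3, 56.8 and 62.0 CPM on CD and 19.7, 16.5, 11.7, 15.6 and 22.6 CPM on TDD (log2 fold change -1.37, standard error 0.30, q = 0.00564, edgeR). Trim30a, a tripartite motif protein, had 42.5, 21.1, 51.1, 65.4 and 78.2 CPM on CD and 16.5, 19.0, 16.2, 20.1 and 28.4 CPM on TDD (log2 fold change -1.36, standard error 0.27, q = 0.00260, edgeR). For both genes only CD mouse 2 fell among the TDD mice. The adjoining genes Parp14, Dtx3l and Parp9, enzymes of ADP-ribose and ubiquitin transfer, had log2 fold changes of -0.61, -0.60 and -0.48 (q = 0.0279, 0.0117 and 0.0234, edgeR). Parp14, the most abundant of the group by CPM, had 124 to 286 CPM (median 258) on CD and 143 to 172 CPM (median 146) on TDD. Trim25, a ligase that activates RIG-I, differed least of the 39 genes, with 94.1 to 222 CPM (median 204) and 149 to 201 CPM (median 168), and its log2 fold change of -0.05 (q = 0.905, edgeR) became positive without CD mouse 4, CD mouse 5 or TDD mouse 2 and with limma-voom.

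Of the feedback inhibitors, Usp18, which removes ISG15 and blocks the type I receptor, was called. It had 16.5, 5.14, 27.4, 22.8 and 33.4 CPM on CD and 8.43, 6.10, 3.98, 6.77 and 11.9 CPM on TDD, so that 4 CD mice were above all TDD mice (log2 fold change -1.5, standard error 0.36, q = 0.00946, edgeR). Socs1 was low throughout, with 1.16 to 2 CPM on CD and 1.15 to 2.23 CPM on TDD, and its groups overlapped (log2 fold change -0.24, q = 0.520, edgeR).

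The immunity-related GTPases attack the vacuoles of intracellular pathogens and are typical targets of interferon gamma. All 4 passed without the fold limit and 2 were called. Igtp had 32.4, 14.7, 37.9, 37.4 and 59 CPM on CD and 12.4, 13.1, 10.3, 12.7 and 17.1 CPM on TDD, with only CD mouse 2 inside the TDD range (log2 fold change -1.47, standard error 0.27, q = 0.00135, edgeR). Ifi47 had 25.6, 18.5, 27.9, 33.1 and 45.5 CPM on CD and 15.8, 14.3, 11.5, 15.7 and 16.0 CPM on TDD, with no overlap (log2 fold change -1.04, standard error 0.19, q = 0.00113, edgeR). As its change was close to 2-fold, the call was lost without CD mouse 5 or TDD mouse 3. Irgm2, at -0.96 on the log2 scale (q = 0.00171, edgeR), fell just short of the limit and was called without CD mouse 2. Irgm1, the most abundant of the group by CPM, had 38.5 to 84.5 CPM (median 57.4) on CD and 27.8 to 42.5 CPM (median 33.1) on TDD, or -0.74 on the log2 scale (q = 0.00695, edgeR).

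**Figure D3:**
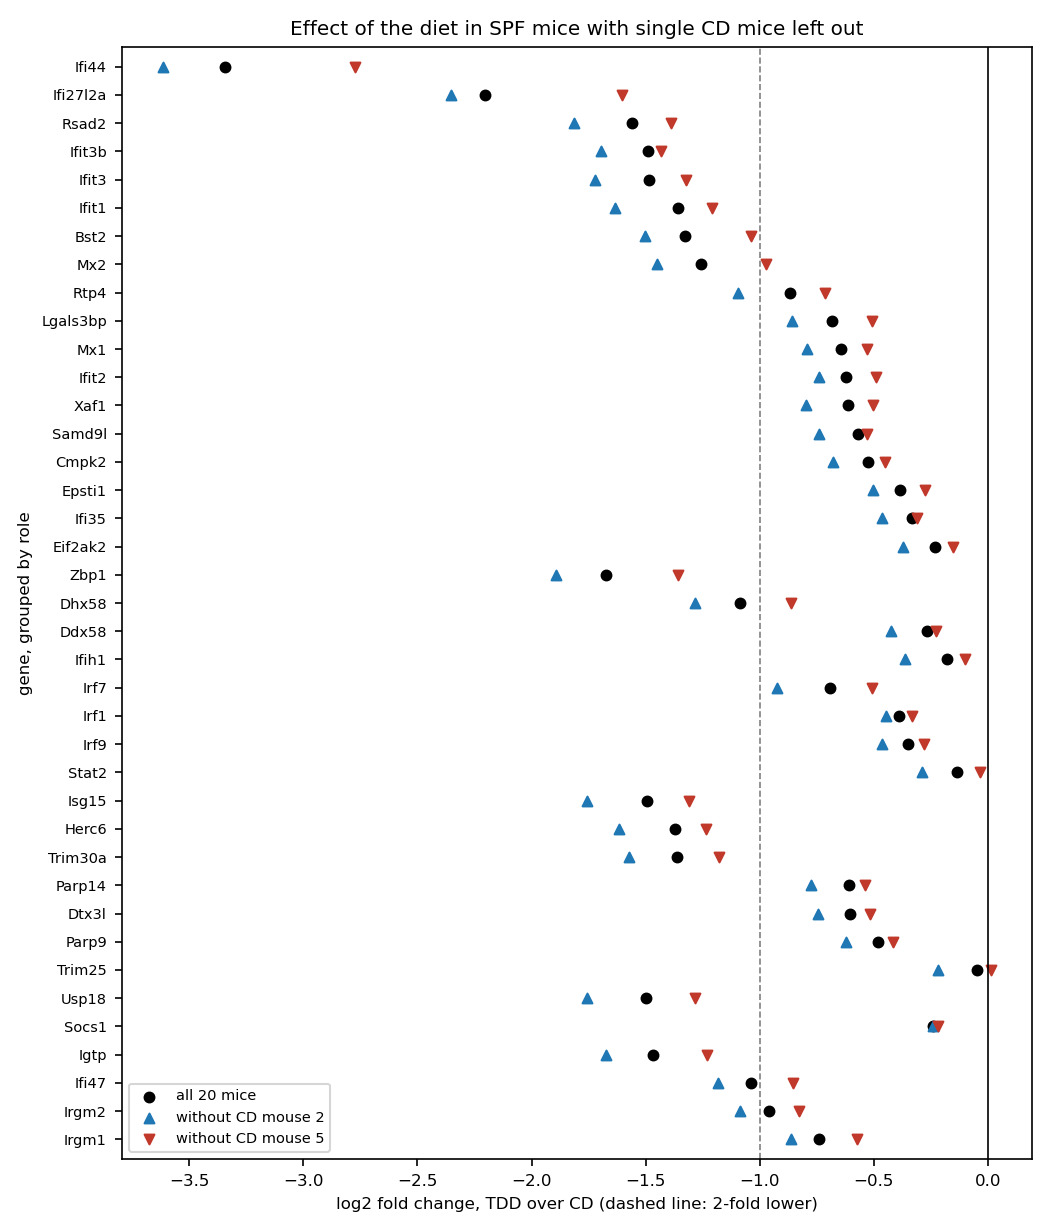
Log2 fold change of TDD over CD for each of the 39 genes (rows, grouped by role) with all 20 mice (circles), without CD mouse 2 (upward triangles) and without CD mouse 5 (downward triangles). The points without CD mouse 2 lie furthest left and those without CD mouse 5 furthest right for nearly every gene, and only Trim25 crosses 0.

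The promoter letters can be set beside these values as a description. Of the 11 called genes with a promoter in the table, 8 held an ISRE core, and of the 19 not called, 7 did. The median log2 fold change was -1.33 over the 15 genes with an ISRE core and -0.60 over the 15 without. Ifi44, Herc6 and Ifi47 were called and had no match to these letters within the window, and Stat2, Ifih1, Ddx58, Eif2ak2 and Socs1 had a match and did not pass even without the fold limit.

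The second comparison asked for the diet effect in mice given antibiotics. TDD+ABX mice again had lower fitted levels than CD+ABX mice for 39 of 39 genes, but 0 of 39 were called, where 0.159% of all genes were called lower, and 0 had a q under 0.05, against 1.02% of all genes (edgeR). At an unadjusted p under 0.05 there were 13, all lower, against 7.57% of all genes. DESeq2 called 2 of the 39 (Ifi44 and Zbp1) and limma-voom 0. The median log2 fold change was -0.37 (range -1.35 to -0.09). The groups did not overlap for 5 of the 39 genes, namely Ifi44, Ifi27l2a, Mx2, Zbp1 and Herc6, against 2.43% of all genes. Herc6 and Mx2 did so by a small margin.

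Zbp1 came closest to the threshold. It had 12.9, 18, 15.9, 26.9 and 15.3 CPM in CD+ABX mice 1 to 5 and 7.19, 6.41, 8.06, 7.36 and 8.74 CPM in TDD+ABX mice 1 to 5, which do not overlap (log2 fold change -1.24, standard error 0.32, q = 0.0576, edgeR). It was called in 2 of the 20 fits that left out 1 mouse, those without CD mouse 2 or CD mouse 5, which share the estimate of the spread. Ifi44 had 4.10, 6.76, 6.80, 10.3 and 4.88 CPM in CD+ABX mice and 2.77, 2.64, 2.98, 1.75 and 2.78 CPM in TDD+ABX mice, also without overlap (log2 fold change -1.35, standard error 0.46, q = 0.166, edgeR). Among genes called in SPF mice, Isg15 had 17 to 38.1 CPM in CD+ABX mice and 13.4 to 24.3 CPM in TDD+ABX mice (log2 fold change -0.47, q = 0.587, edgeR). Ifit1 ranged from 45.2 to 84.3 CPM and from 32.5 to 57.2 CPM (log2 fold change -0.51, q = 0.592, edgeR), and Rsad2 from 11.4 to 22 CPM and from 10.4 to 18.8 CPM (log2 fold change -0.37, q = 0.683, edgeR). These groups overlapped. The GTPases had log2 fold changes from -0.67 (Igtp) to -0.34 (Irgm1), and 3 of the 4 had an unadjusted p under 0.05.

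**Figure D4:**
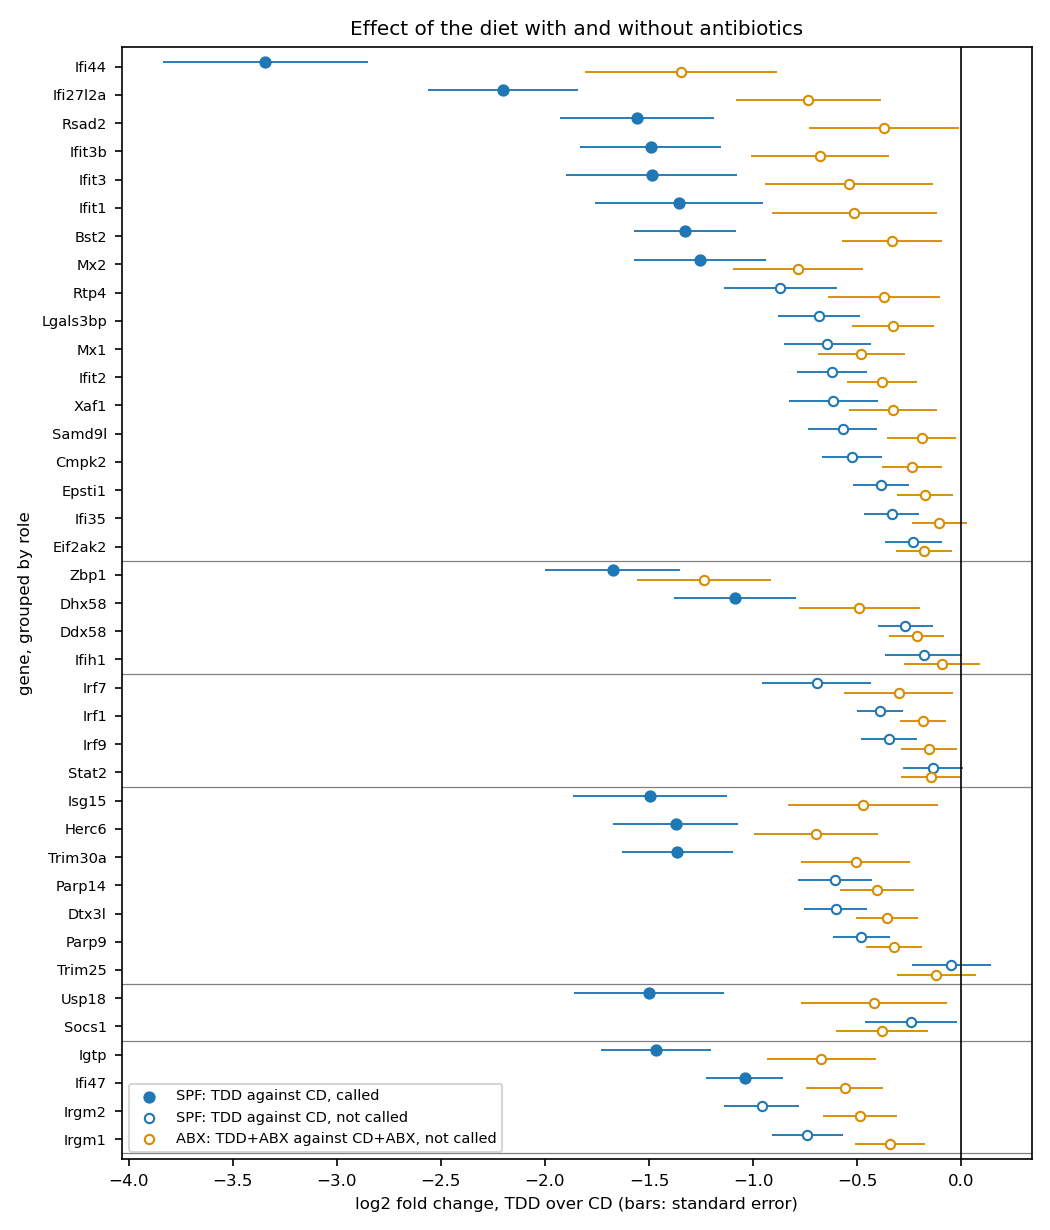
Log2 fold change of the diet without tryptophan over the control diet, with its standard error, for the 39 genes (rows, grouped by role) in SPF mice (blue) and in ABX-treated mice (orange), with called genes filled. In SPF mice 16 points are filled and in ABX-treated mice 0, and the points of both colours lie below 0.

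Whether the diet effect differed between SPF and ABX-treated mice was tested as the interaction of diet and antibiotics. The fitted diet effect was lower in SPF mice for 36 of 39 genes, and the median interaction was 0.39 on the log2 scale. None of the 39 passed (edgeR, where 0.0245% of all genes were called), nor with DESeq2 or limma-voom. In edgeR, 7 had an unadjusted p under 0.05, all in the direction of a weaker effect with antibiotics, against 4.24% of all genes in that direction. They were Ifi44, Ifi27l2a, Bst2, Rsad2, Trim30a, Usp18 and Igtp, with interactions from 2 for Ifi44 (standard error 0.65, q = 0.320) to 0.79 for Igtp (standard error 0.37, q = 0.547).

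The third comparison gave the effect of antibiotics on the control diet, which uses the same CD mice as the first. Of the 39 genes, 2 were called lower, where 1.67% of all genes were called lower, and 4 had a q under 0.05, against 7.37%. At an unadjusted p under 0.05 there were 10, all lower, against 14.5% of all genes. Fitted values were lower for 32 genes and higher for 7, with a median of -0.19. The groups did not overlap for 0 of the 39, against 5.88% of all genes. The genes called were Ifi44 (log2 fold change -1.62, standard error 0.45, q = 0.0254, edgeR) and Ifi27l2a (-1.21, standard error 0.35, q = 0.0276, edgeR). Ifi27l2a had 7.78, 5.95, 6.10, 8.74 and 5.36 CPM in CD+ABX mice, of which only those of mice 1 and 4 reached the lower end of the CD mice. The CD values of both genes rested on CD mouse 5, without which 0 of the 39 were called. Leaving out CD+ABX mouse 3 or 5 also left 0, as did limma-voom, no filter on low counts, a fit of these 2 groups alone and the replicate block. Ifit2 and Ifi47 passed without the fold limit, at -0.53 and -0.74 (q = 0.0438 and 0.0134, edgeR).

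On the diet without tryptophan, antibiotics went with the opposite sign for most genes. TDD+ABX mice had higher fitted levels than TDD mice for 30 of 39 genes and lower for 9, with a median log2 fold change of 0.23. None was called (edgeR, where 0.368% of all genes were called higher) and none had a q under 0.05, while 7.14% of all genes did in that direction. At an unadjusted p under 0.05 there were 4, all higher, against 13.9% of all genes. DESeq2 called 1 (Rsad2, higher) and limma-voom 0. Rsad2 had 13.0, 10.4, 18.8, 10.8 and 16.4 CPM in TDD+ABX mice, all above the TDD mice (log2 fold change 0.99, standard error 0.37, q = 0.0744, edgeR). Cmpk2 and Samd9l were also separated, which makes 3 of 39 against 5.97% of all genes. Isg15 was next in size at 0.88 (q = 0.114, edgeR), with overlapping groups.

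**Figure D5:**
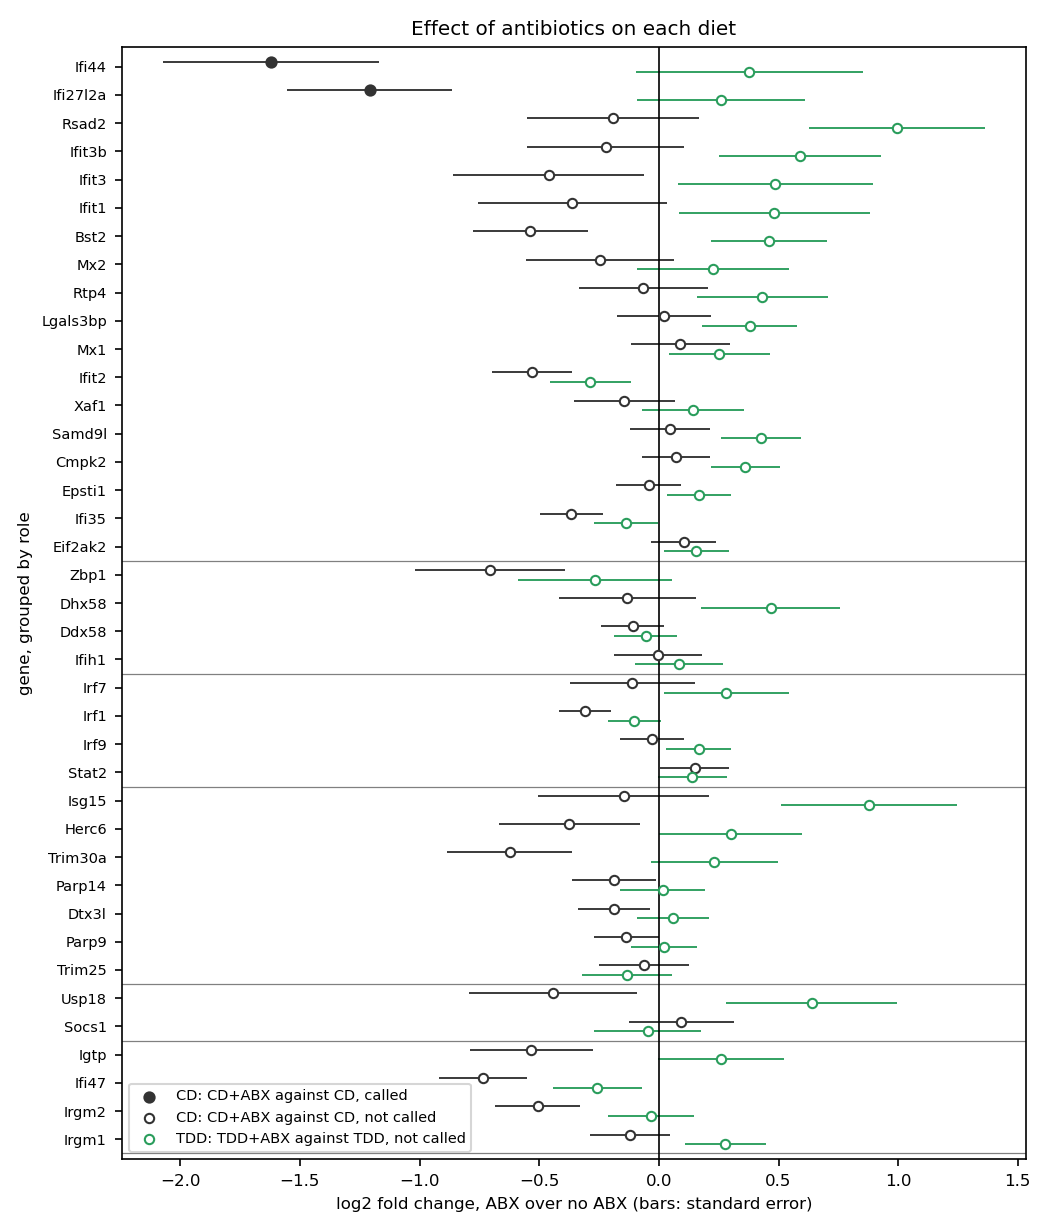
Log2 fold change of antibiotics over no antibiotics, with its standard error, for the 39 genes (rows, grouped by role) on the control diet (black) and on the diet without tryptophan (green), with called genes filled. Ifi44 and Ifi27l2a are filled on the control diet, and 30 of the 39 green points lie above 0.

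None of the other pathway genes reported here was called in any of the 4 comparisons. The table held 20 interferon genes, of which 13 were at 0 in every mouse and the highest count was 10, so 0 of the 20 could be tested and no change in them was detectable at this depth. Of the receptor and JAK-STAT genes reported here, 1 had a q under 0.05 and was higher in TDD than in CD mice. Ifnar1, a chain of the type I receptor, was higher at 49.1 to 60.7 CPM (median 57.2) on CD and 69.8 to 83.5 CPM (median 71.0) on TDD, without overlap (log2 fold change 0.39, standard error 0.06, q = 0.000525, edgeR). It was lower in TDD+ABX than in TDD mice (log2 fold change -0.32, q = 0.00351, edgeR). Ifnar2, the other chain of this receptor, was lower with antibiotics on both diets, at -0.50 on the log2 scale in TDD+ABX against TDD mice (means of 17.5 and 24.6 CPM, q = 0.00305, edgeR) and at -0.44 in CD+ABX against CD mice (16.6 and 22.5 CPM, q = 0.00628, edgeR). Ifngr2, a chain of the interferon gamma receptor, was the most abundant of this list, with means of 224 CPM on CD and 206 CPM on TDD. Of 13 genes upstream of interferon, only Tlr3, a sensor of double-stranded RNA, had a q under 0.05 in this comparison (log2 fold change -0.45, q = 0.00296, edgeR), and the most abundant was the kinase Tbk1, at 103 and 118 CPM.

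Markers of immune cells moved with these genes in part. The 12 T and NK cell markers summed to 69.6, 46.5, 54.4, 130 and 211 CPM in CD mice 1 to 5 and 59.3, 58.9, 56.7, 67.8 and 67.1 CPM in TDD mice. CD mice 4 and 5 stood apart, and CD mice 2 and 3 were below all TDD mice. CD mouse 2 was lowest in CD for the 39 genes as well, whereas CD mouse 3 was second highest for them. Of the 12, fitted values were lower on TDD for 9 and higher for 3, and 2 were called lower, against 0.993% of all genes. The 2 were Cd8b1 of CD8 T cells (log2 fold change -2.33, q = 0.00838, edgeR) and Nkg7 of cytotoxic cells (-1.21, q = 0.0125, edgeR). Cd8b1 was scarce, at 1.63 to 10.4 CPM on CD and 0.151 to 1.43 CPM on TDD. The most abundant, Gzma, had means of 29.4 and 16.3 CPM, and 0 of the 12 were at 0 in every mouse. On the control diet with antibiotics, 8 of the 12 were called lower (Cd3e, Cd3g, Cd8a, Cd8b1, Nkg7, Gzma, Gzmb and Prf1), where 1.67% of all genes were. Cd8b1 and Prf1 were scarce in CD+ABX mice, at 0.144 to 0.369 CPM and 0.192 to 0.339 CPM. All 12 together summed to 33.0 to 41.1 CPM in these mice, while the 39 genes summed to 1973 to 2840 CPM. The calls of T and NK cell markers were not checked by leaving out mice. The 10 macrophage and dendritic cell markers summed to 190 to 243 CPM on CD and 109 to 174 CPM on TDD, without overlap. Of them 5 had a q under 0.05, all lower, against 7.71% of all genes, and 0 were called. The most abundant, C1qa, was at -0.40 on the log2 scale (q = 0.0100, edgeR). Fitted values were lower on TDD for 8 of the 10 and higher for 2. The means of Flt3 and Xcr1 were higher on TDD, at 3.54 against 2.88 CPM and 2.24 against 2.17 CPM. CD mouse 2, at 199 CPM, was not low for these markers. Plasmacytoid dendritic cells are a main source of type I interferon. In TDD against CD mice their 8 markers had 0 genes with a q under 0.05 (3 at an unadjusted p under 0.05), with Irf8 the most abundant at 81.5 and 73.8 CPM. Neither the 7 B cell nor the 10 epithelial nor the 5 smooth muscle markers had a gene with a q under 0.05 in TDD against CD mice (edgeR), and at an unadjusted p under 0.05 there were 0, 1 and 0. Within the CD group their sums were uneven. The smooth muscle markers summed to 1314, 2183, 1249, 1113 and 393 CPM in CD mice 1 to 5 and the epithelial markers to 12709, 9376, 13304, 14524 and 14238 CPM, while the 39 genes summed to 2520, 1440, 3030, 3018 and 3652 CPM. CD mouse 2, the lowest for the 39 genes, thus had the most muscle and the least epithelial marker RNA of the SPF mice, and CD mouse 5, the highest, had the least muscle marker RNA. In TDD mice the sums were 555 to 1729 CPM and 11322 to 13258 CPM. The most abundant were Cd79a at 8.87 and 21.3 CPM, Vil1 at 3679 and 3619 CPM and Myh11 at 578 and 582 CPM. Vil1 marks gut epithelium in general. The markers particular to the ileum were low in SPF mice, where Fabp6, the bile acid carrier of ileal cells, had 0.319 to 2.42 CPM on CD and 0.238 to 3.91 CPM on TDD, and Slc10a2, the bile acid transporter of the ileum, had 1.38 to 3.89 CPM and 3.69 to 8.80 CPM. With antibiotics they stood at 2.65 to 144 CPM and 16.6 to 86.1 CPM on CD and at 3.34 to 40.8 CPM and 13.2 to 58.3 CPM on TDD. The part of these cell types in the differences was not tested.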

How the data were processed

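Poly-A RNA from 20 pieces of ileum, 1 per mouse, was sequenced, and the authors used kallisto 0.44.0 and GRCm38, per the labels. They deposited estimated counts per gene without normalization, which need not be whole because kallisto splits reads between transcripts, and TPM per transcript. The authors also used iDEP.91, whose test is not given in the sources used here. Here the estimated counts were rounded, and 16306 genes reaching 0.5 CPM in 1 mouse or more were fitted with edgeR 4.0.16 (TMM, robust quasi-likelihood, 4 groups in 1 fit) in R 4.3.3. Alternatives were DESeq2 1.42.0, limma 3.58.1 (voom), other scalings and filters, the compared groups alone, a replicate block and leaving out each mouse. The fit was tested on simulated data. The mice in a group are separate animals. All 20 deposited libraries were used, although some of the study's own panels used fewer mice, which it does not name. TPM values were summed per gene and used only to compare levels between genes.

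The 39 genes, their roles and the other lists were chosen with earlier results of these data known. All genes called in 1 of the 4 comparisons and the most abundant gene of each list are named, and the rest are given by counts and ranges. Of the upstream genes, 1 of 14 was not matched and was not analysed here, and 1 gene of the receptor and JAK-STAT list is not reported here. Promoters came from RefSeq (GRCm38.p6) and coordinates from GENCODE M21.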

Additional observations from a re-analysis of the deposited data

Results flagged for a closer look

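Each group of 5 mice was checked, gene by gene, for a mouse far from the other 4 (a gap to the nearest mouse above 0.71 of the range of the group, Dixon's test). This found 8 of 156 groups, and chance alone would give about 1 in 20. On the control diet, CD mouse 2 was far below the others for Ddx58 (54.4 CPM, the next at 99.3 CPM) and Parp14 (124 CPM, the next at 239 CPM). CD mouse 5 was far above for Ifi27l2a (37.3 CPM, the next at 15.3 CPM), and CD mouse 1 far below for Socs1 (1.16 CPM, the next at 1.81 CPM). On TDD, mouse 5 was far above for Ifi44 (3.54 CPM, the next at 1.81 CPM) and mouse 3 far below for Epsti1 (32.7 CPM, the next at 41.6 CPM). Among TDD+ABX mice, mouse 4 was far below for Ifi44 (1.75 CPM, the next at 2.64 CPM) and mouse 2 for Dhx58 (8.59 CPM, the next at 12.3 CPM).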

How the results depend on the processing

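In TDD against CD mice, 9 of the 39 genes were called when only those 2 groups entered the fit and 28 without the fold limit, against 12 to 16 under DESeq2, limma-voom, other scalings and other filters. Leaving out 1 mouse gave 11 to 18 (11 without CD mouse 5, 18 without CD mouse 2). In TDD+ABX against CD+ABX mice, DESeq2 and the fit of these groups alone gave 2, upper-quartile scaling gave 1, and leaving out 1 mouse gave 0 to 1. In CD+ABX against CD mice, limma-voom, no filter and the compared groups alone gave 0, no fold limit gave 4, and leaving out 1 mouse gave 0 to 2. In TDD+ABX against TDD mice, DESeq2 and the compared groups alone gave 1, and leaving out 1 mouse gave 0 to 1. For the interaction every setting run gave 0, and the compared groups alone cannot give one. Deviations of TDD and CD mice with the same number correlated at -0.15 to 0.26, with 2 of 5 pairs above 0.1. The numbers were not used to pair mice in the main fit, and these values cannot settle whether they mark a pairing. With the replicate block, 15 genes were called in TDD against CD mice and 0 in CD+ABX against CD mice. Among the 5421 values of single genes under alternatives, 45 lost their call, 14 gained one, and 86 changed sign, of which 0 had a q under 0.05. The causes were not tested. Depth limits the 20 interferon genes, which had at most 10 counts in a mouse.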

Other observations

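Some genes of the other lists were called under antibiotics. Slc10a2, which takes bile acids into ileal cells, was higher in CD+ABX than in CD mice (log2 fold change 4.07, q = 9.83e-05, edgeR) and in TDD+ABX than in TDD mice (2.65, q = 0.00140, edgeR). Fabp6, which carries bile acids within these cells, was called higher in both comparisons (q = 0.00585 and 0.0198, edgeR), but its level with antibiotics was uneven. It had 2.65, 14.6, 5.47, 144 and 40.8 CPM in CD+ABX mice 1 to 5, so that the mean of 41.6 CPM rested on mouse 4 and the median was 14.6 CPM, against 0.319 to 2.42 CPM in CD mice. Without that mouse the log2 fold change against CD mice went from 5.14 to 3.77 (q = 0.0186, edgeR). Against TDD mice it was 3.92 in TDD+ABX mice, and 4.77 without TDD mouse 4 (q = 0.0195, edgeR). Neither gene had a q under 0.05 for the diet in SPF or ABX-treated mice. Among the plasmacytoid dendritic cell markers, Ccr9, a gut homing receptor also found on T cells, was lower in CD+ABX than in CD mice (2.01-fold, q = 0.00320, edgeR). This was at the 2-fold limit, and the call was lost without any 1 of several mice, CD mouse 5 among them (log2 fold change -0.79, q = 0.0106, edgeR). Ly6d, also on this list, was called lower in TDD+ABX than in TDD mice (log2 fold change -1.09, q = 0.0452, edgeR). Its groups overlapped, at 2.79 to 14.1 CPM in TDD mice and 2.39 to 8.02 CPM in TDD+ABX mice. That call too was lost without any 1 of several mice, TDD mouse 4 among them (log2 fold change -0.89, q = 0.118, edgeR).

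B cell markers varied widely between mice of the same group. The 7 markers summed to 4.99 to 110 CPM in CD mice, 5.32 to 170 CPM in TDD mice, 3.02 to 8.97 CPM in CD+ABX mice and 4.20 to 120 CPM in TDD+ABX mice. None had a q under 0.05 in any of the 4 comparisons (edgeR), although 7 of 7 had an unadjusted p under 0.05 lower in CD+ABX than in CD mice and 6 of 7 higher in TDD+ABX than in CD+ABX mice.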
